A study of Mus musculus with 7 samples.

Results

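The genes described here are the mouse genes that carry a CD name, the numbered nomenclature of leukocyte surface antigens. They were taken from an array platform whose annotation gives each probe set (a group of probes for 1 transcript) its gene symbol. Symbols that begin with Cd and a number were kept from probe sets with exactly 1 symbol. That gave 46 genes, of which the rule set 10 aside, 3 of non-surface proteins (Cd2ap, Cd2bp2 and Cd3eap) and 7 of surface proteins (Cd14, Cd177, Cd28, Cd3d, Cd74, Cd79b and Cd300lb). The remaining 36 genes, measured by 52 probe sets, are the members among 8378 genes in all. All 36 matched a RefSeq gene by gene ID, with symbols unchanged.

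All 7 samples were bone marrow cells harvested from transplanted mice. The controls were recipients of cells with a mock transgene (3 arrays, unsorted). ABCG2, a membrane pump that exports drugs and porphyrins, was the transgene of the second group (2 arrays, unsorted). In the last set the transgene was EZH2-Mt. Sorting of this MDS-like marrow by green fluorescent protein (GFP) gave 1 GFP-negative and 1 GFP-positive array. EZH2 is a histone methyltransferase of Polycomb repressive complex 2, MDS is taken as myelodysplastic syndrome, and the series title names genes altered in MDS. Not given in the sources used here are the strain, the age, the promoter driving each transgene, the mutation behind EZH2-Mt, and whether both sorted fractions came from 1 mouse. Recipient mice are not numbered in the labels, so the p-values cover only the spread among these arrays, which may be technical.

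CD antigens were numbered as antibodies against blood cells were grouped by what they bind, so the number says nothing of function. Their genes include coreceptors that restrain or help the B cell receptor, receptors and ligands that license or hold back T and NK cells, and lectins and scavenger receptors of phagocytes. Others encode tetraspanins, which organise membrane complexes, adhesion molecules, and lipid-anchored proteins that protect cells from complement. In marrow, such antigens are used in combination to tell lymphoid, myeloid, erythroid and progenitor cells apart.

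Values are deposited log signals, taken as log2, centred in each probe set on the median of the 7 arrays. A value of 0 is therefore that gene's own median, and values of different genes cannot be ranked by level. Probe sets were kept by the authors only if called Present or Marginal on all arrays, so a gene absent on any array is not in the values used here. A gene called absent on an ABCG2 array, for example, could not appear among the falls.

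The targeted genes were looked at first. Mouse Abcg2 lay at 0.02, -0.17 and 0 on the mock arrays and at -0.92 and -0.91 on the arrays labelled ABCG2, a fall of -0.86 ± 0.13 (limma adjusted p = 0.00168), against -0.45 after quantile normalization (limma adjusted p = 0.115). That is the opposite of a gain of the labelled gene. The transgene's species, and whether the probe set detects it, are not stated in the labels, so the label could not be checked by it. Below, ABCG2 marrow means the arrays labelled ABCG2, and each direction rests on that label. Ezh2 lay at -0.14 in the GFP-negative and -0.16 in the GFP-positive fraction, within the mock range of -0.22 to 0.14. On the ABCG2 arrays Ezh2 lay at 0.35 and 0.68, a rise of 0.54 ± 0.17 (limma adjusted p = 0.0315). Quantile normalization gave 0.22 (limma adjusted p = 0.471). Abcg2 lay at 0.84 in GFP-negative and 1.35 in GFP-positive cells. In the deposited values each gene was thus highest outside the group labelled with it.

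The arrays differed in more than these genes. The SD over all probe sets was 0.33 to 0.42 on the mock arrays, 1.06 and 1.13 on the ABCG2 arrays, 0.41 on the GFP-negative array and 0.54 on the GFP-positive array. Median values of 40 bacterial and phage control probe sets, which measure added or absent RNA and not marrow, were 0 on each mock array, -0.89 and -1.40 on the ABCG2 arrays, 1.52 on the GFP-negative array and 3.09 on the GFP-positive array. Among them the 4 probe sets of bioB had medians of -3.07 and -3.20 on the ABCG2 arrays, and the 4 of bioD had -0.10 and -0.20. The part of these shifts in the results was not tested. A tag of unstated meaning stands in the titles of both ABCG2 arrays and in no other title. If it marks a batch, batch and ABCG2 group cannot be told apart. Ptprc, which encodes the pan-leukocyte antigen CD45, lay at 0.06, -0.08 and 0.04 on the mock arrays, -1.26 and -0.63 on the ABCG2 arrays and 0.08 and 0.11 on the GFP-negative and GFP-positive arrays. It was named after its values were seen.

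In ABCG2 marrow the deepest falls against mock marrow were in Cd44, the hyaluronan receptor gene, and in the phagocyte genes Cd300lf, Cd68 and Cd33. The largest rises were in the lymphocyte genes Cd22 and Cd69. Of the 36 members, 11 rose and 18 fell in limma's moderated test (adjusted p under 0.05 over all 8378 genes, 2 against 3 arrays), while 7 did not pass. Over all genes the same fit called 35.6% higher and 26.2% lower, so 30.6% of members were higher and 50% lower against that background. The median difference, ABCG2 mean minus mock mean, was -0.82 log2 over the members and 0.15 over all genes. Values of the 2 ABCG2 arrays lay wholly above or wholly below the 3 mock arrays in 31 of 36 members, and over all genes in 76.9%. With quantile normalization, which gives each array the same spread, 4 members rose and 15 fell. The 4 largest falls shrank to between -3.13 and -1.98. The rises of Cd22 and Cd69 were then 3.62 and 2.37. In whole marrow, fewer cells of a type and less RNA per cell cannot be told apart.

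**Figure D1:**
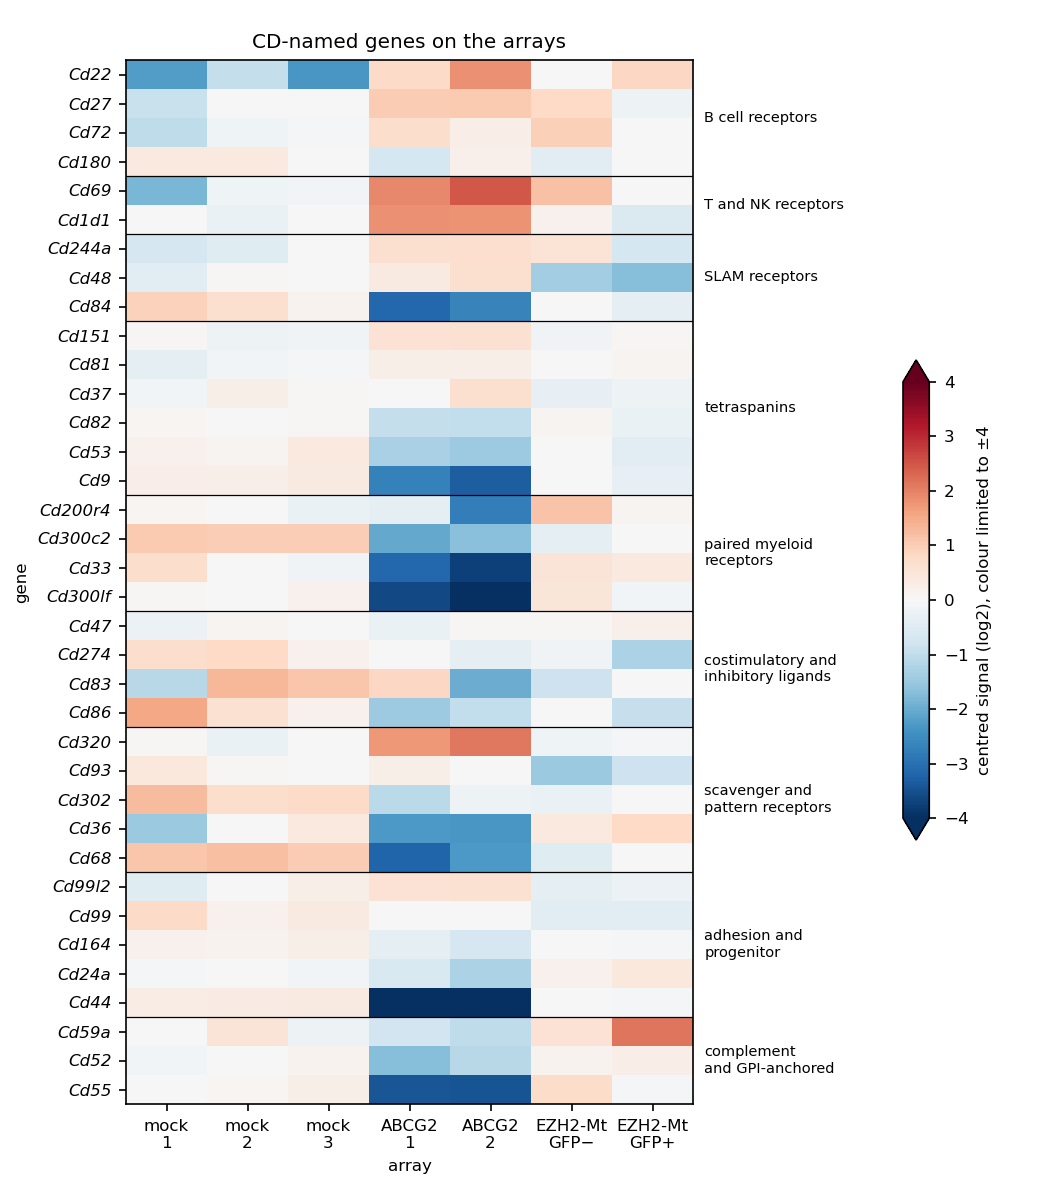
Centred signal (log2, colour limited to ±4) of the 36 CD-named genes (rows, grouped by role) on the 7 arrays (columns). The 2 ABCG2 columns hold the deepest blue, among others in Cd44, Cd300lf, Cd33 and Cd55, and are red in Cd69, Cd320 and Cd1d1. Cd22 is blue in the mock columns and red in the ABCG2 columns, and Cd59a is red in the GFP-positive column.

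Promoter windows are shown for 4 members that mark both directions, Cd44 and Cd300lf among the largest falls and Cd22 and Cd320 among the largest rises. Each runs from 250 bases before to 50 bases after the RefSeq start (GRCm38.p6), 5′ to 3′ on the gene's own strand. Capitals mark GAGGAA or its reverse complement TTCCTC, the core bound by the myeloid and B cell factor PU.1. The windows are chr2:102901616-102901915 (Cd44, minus strand), chr11:115133943-115134242 (Cd300lf, minus), chr7:30878979-30879278 (Cd22, minus) and chr17:33842841-33843140 (Cd320, plus, the first of its 2 windows).
Cd44: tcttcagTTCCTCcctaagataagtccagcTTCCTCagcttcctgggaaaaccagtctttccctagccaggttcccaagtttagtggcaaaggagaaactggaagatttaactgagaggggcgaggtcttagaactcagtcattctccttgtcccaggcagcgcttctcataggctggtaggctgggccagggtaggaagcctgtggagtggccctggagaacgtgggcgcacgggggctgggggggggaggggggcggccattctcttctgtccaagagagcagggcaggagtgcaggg
Cd300lf: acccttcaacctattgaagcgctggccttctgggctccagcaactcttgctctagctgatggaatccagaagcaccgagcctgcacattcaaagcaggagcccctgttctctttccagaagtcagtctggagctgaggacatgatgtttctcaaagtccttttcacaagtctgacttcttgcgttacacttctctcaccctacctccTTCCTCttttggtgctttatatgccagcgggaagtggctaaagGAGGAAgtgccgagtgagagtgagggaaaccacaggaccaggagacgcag
Cd22: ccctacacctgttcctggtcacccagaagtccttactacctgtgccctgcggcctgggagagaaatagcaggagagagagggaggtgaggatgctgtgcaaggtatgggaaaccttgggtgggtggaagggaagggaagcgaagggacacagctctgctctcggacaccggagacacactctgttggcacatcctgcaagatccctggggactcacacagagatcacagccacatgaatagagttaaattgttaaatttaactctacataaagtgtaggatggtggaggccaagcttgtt
Cd320: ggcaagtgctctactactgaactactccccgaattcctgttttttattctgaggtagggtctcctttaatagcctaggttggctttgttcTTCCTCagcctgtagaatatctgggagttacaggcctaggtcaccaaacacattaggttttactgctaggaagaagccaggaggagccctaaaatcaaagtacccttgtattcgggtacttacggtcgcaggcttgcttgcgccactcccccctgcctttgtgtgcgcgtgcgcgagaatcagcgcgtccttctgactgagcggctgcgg
The Cd44 and Cd300lf windows hold 2 matches each, that of Cd22 holds 0, and that of Cd320 holds 1, while the second Cd320 window, not shown, holds 0. Windows were given for 28 members (35 windows), and not for Cd1d1, Cd24a, Cd52, Cd69, Cd83, Cd86, Cd93 and Cd99. GAGGAA was found on either strand in 28.3% of all 32851 windows, 40% of member windows, 55.6% of the 18 windows of members that fell and 27.3% of the 11 windows of members that rose. CAGGTG or its reverse complement CACCTG, an E-box of the lymphoid factor E2A, was found in 20.2% of all windows, 22.2% of the windows of members that fell and 27.3% of those that rose. Among the windows shown, that of Cd22 holds 1 such E-box match, left in lower case, and those of Cd44, Cd300lf and Cd320 hold 0. These matches describe letters in a window and say nothing of binding. The motifs were chosen with the earlier results of these data known.

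Of 8 genes listed as B cell receptors, 4 were members, and of these Cd22, Cd27 and Cd72 rose in ABCG2 marrow while Cd180 did not pass (median difference 1.12 log2). Over all genes 35.6% were called higher. Cd22, a sialic-acid-binding lectin that restrains B cell receptor signalling, lay at -2.25, -0.95 and -2.32 on the mock arrays and at 0.76 and 1.81 on the ABCG2 arrays. The groups did not overlap, and the rise was 3.12 ± 0.49 log2 (SE, 8.72-fold, limma adjusted p = 0.00181), the largest among the members. Cd27, a TNF-family receptor of lymphocytes and progenitors, lay at -0.89, 0 and -0.02 on mock arrays and at 1.02 and 1.06 on ABCG2 arrays, a rise of 1.34 ± 0.28 (limma adjusted p = 0.00653). Cd72, an inhibitory lectin-like coreceptor of B cells, lay at -1.01, -0.17 and -0.08 in mock and at 0.71 and 0.25 in ABCG2 marrow, a rise of 0.90 ± 0.31 (limma adjusted p = 0.0401). In both Cd27 and Cd72 the first mock array was the lowest of the 7. Cd180, a leucine-rich receptor that modulates endotoxin responses of B cells and monocytes, did not pass (-0.50 ± 0.28, limma adjusted p = 0.158), and the groups overlapped. Without ABCG2 replicate 2 its difference was -0.95 (limma adjusted p = 0.0123). Calls of Cd27 and Cd72 were lost under quantile normalization (limma adjusted p = 0.0974 and 0.141). Cd72 also lost its call with array weights, with the replicate number as a block, and when mock replicate 2 or ABCG2 replicate 1 was left out. Of 14 genes listed as B lineage markers, 7 were measured and 3 rose (42.9%, against 35.6% over all genes), namely Il7r by 5.93, Spib by 4.84 and Pou2af1 by 4.28. The others did not pass, with differences of -1.54 for Ighm, -0.78 for Bank1, 0.77 for Blnk and 0.54 for Ms4a1. The list mean ran from -1.18 to -0.37 on the mock arrays and was 1.12 and 1.50 on the ABCG2 arrays, a gap set mainly by the 3 that rose. Il7r was low on the mock arrays, at -4.84, -3.74 and -4.26, and lay at 1.43 in GFP-negative and 0 in GFP-positive cells. In the same 2 fractions Spib lay at -0.03 and -0.17 (mock 0, 1.35 and -0.18). Pou2af1 lay there at -0.32 and 0.18 (mock 0, -0.25 and -0.78). Pax5, Ebf1, Vpreb1, Igll1, Rag1, Rag2 and Fcrla were not in the values.

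Both measured genes of the T and NK cell role rose, out of 16 listed, against 35.6% of all genes. Cd69, a lectin-like receptor that appears early on activated lymphocytes, lay at -1.81, -0.18 and -0.11 on the mock arrays and at 1.94 and 2.50 on the ABCG2 arrays. The mock array lowest in Cd69 was again the first, and the rise was 2.92 ± 0.52 log2 (7.57-fold, limma adjusted p = 0.00318). Cd1d1, which encodes not a T cell receptor but the molecule that presents lipids to NKT cells, was tighter, with mock values of 0, -0.28 and -0.03 and ABCG2 values of 1.82 and 1.79. It rose by 1.90 ± 0.14 (3.74-fold, limma adjusted p = 9.15e-05), or by 1.22 after quantile normalization. Only 2 of the 16 genes listed as T and NK cell markers were measured, the granule gene Nkg7 and the receptor gene Klrd1. They moved in opposite directions, Klrd1 rising by 5.01 ± 0.62 and Nkg7 falling, with a difference of -1.53 ± 0.21, so they show no common direction. Their mean, -1.90 to -0.42 on the mock arrays and 0.57 and 0.67 on the ABCG2 arrays, follows Klrd1. Defining genes such as Trac, Lck, Zap70, Thy1 and Ncr1 were not in the values.

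SLAM receptors, which bind each other across cells, split, with 2 of 3 measured members higher and 1 lower. The shares over all genes were 35.6% higher and 26.2% lower. Cd244a, the 2B4 receptor of NK cells and progenitors, lay at -0.68, -0.47 and 0 in mock and at 0.65 and 0.67 in ABCG2 marrow, a rise of 1.04 ± 0.21 (limma adjusted p = 0.00564). Its ligand gene Cd48, widely expressed on blood cells, lay at -0.45, 0.05 and 0 on the mock arrays and at 0.35 and 0.64 on the ABCG2 arrays, a rise of 0.63 ± 0.20 (limma adjusted p = 0.0302). Cd84, a SLAM receptor that binds itself and is found on myeloid cells, platelets and B cells, moved the other way, from 0.93, 0.63 and 0.14 to -3.15 and -2.66. That fall was 11.1-fold (-3.47 ± 0.26, limma adjusted p = 9.64e-05). The receptor and its ligand thus stood on the same side and Cd84 on the other. The groups did not overlap in any of the 3, as was so in 76.9% of all genes. The Cd244a and Cd48 calls were lost under quantile normalization (limma adjusted p = 0.0573 and 0.304). Cd48 lost it also with array weights and when mock replicate 1 or ABCG2 replicate 2 was left out.

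Tetraspanins went in both directions, 2 higher (33.3%) and 3 lower (50%) of 6 measured, against 35.6% and 26.2% of all genes. Cd63 was the listed gene that was not a member. Cd9, a tetraspanin of platelets, megakaryocytes and myeloid cells, lay at 0.28, 0.24 and 0.36 on the mock arrays and at -2.71 and -3.29 on the ABCG2 arrays. It fell 9.81-fold (-3.29 ± 0.19, limma adjusted p = 3.86e-05), or by 2.10 after quantile normalization. The leukocyte tetraspanin gene Cd53 lay at 0.17, 0.12 and 0.39 in mock and at -1.31 and -1.44 in ABCG2 marrow, a fall of -1.60 ± 0.14 (limma adjusted p = 0.000192). In both Cd9 and Cd53 the gap was far wider than the spread within either group, though the ABCG2 arrays differed by 0.58 in Cd9. The 2 probe sets of Cd53 gave -1.21 and -1.99. Cd82, which restrains cell movement, lay at 0.08, 0 and 0.05 and then at -0.96 and -0.98, a difference of -1.01 ± 0.12 (limma adjusted p = 0.00063), or -0.67 after quantile normalization. Cd151, a partner of laminin-binding integrins, lay at 0.04, -0.20 and -0.14 in mock and at 0.58 and 0.62 in ABCG2 marrow, a rise of 0.70 ± 0.14 (limma adjusted p = 0.00475). Its 4 probe sets ran from 0.48 to 0.81, most of them with probes able to match other transcripts. In a fit of single probe sets the weakest did not pass (limma adjusted p = 0.0538). Cd81, part of the B cell coreceptor complex, lay at -0.38, -0.11 and -0.06 and then at 0.23 and 0.24, a rise of 0.42 ± 0.15 close to the threshold (limma adjusted p = 0.0454). The Cd151 call was lost under quantile normalization (limma adjusted p = 0.108). That of Cd81 was lost under quantile normalization, with array weights, with the replicate block and without any of the 5 arrays in turn. Cd37, a tetraspanin most abundant on B cells, did not pass at 0.26 ± 0.21 (limma adjusted p = 0.32), and its difference was 0.58 without ABCG2 replicate 1 (limma adjusted p = 0.0413) and -0.05 without ABCG2 replicate 2.

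**Figure D2:**
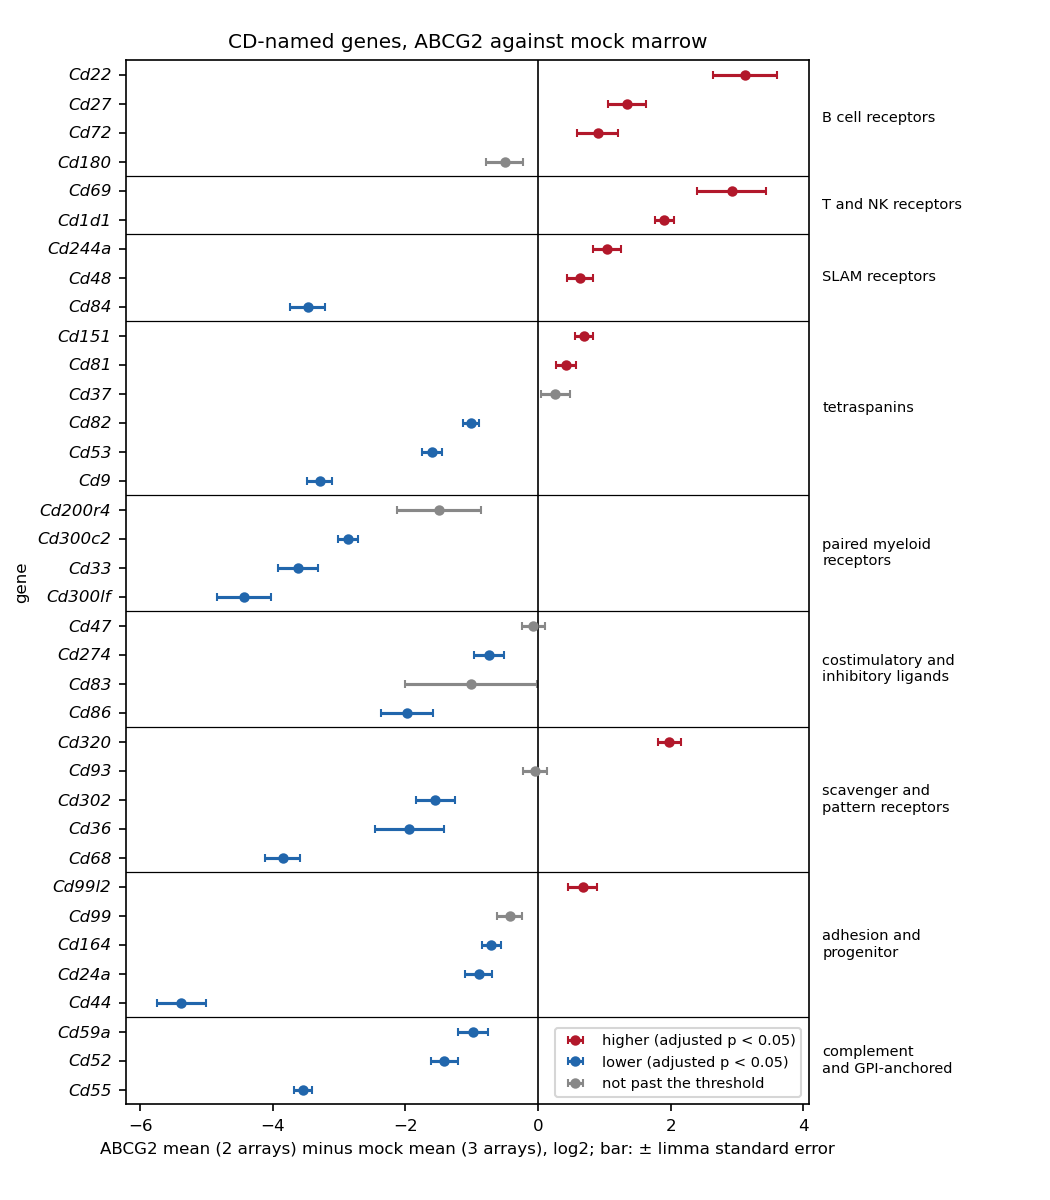
Difference of the ABCG2 mean (2 arrays) from the mock mean (3 arrays) in log2 for each CD-named gene, with limma's standard error as bars and colours for higher, lower and not past the threshold. Falls reach -5.38 in Cd44 and rises reach 3.12 in Cd22, and the paired myeloid receptors all lie left of 0.

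Inhibitory and activating receptors of myeloid cells were the group with the lowest median (-3.24 log2), 3 of 4 measured members falling and 0 rising. They are 4 of 18 genes listed. Of all genes, 26.2% were called lower and 35.6% higher. Cd300lf, an inhibitory receptor that binds phospholipids on dying cells, lay at 0.04, 0 and 0.17 on the mock arrays and at -3.61 and -5.12 on the ABCG2 arrays. The fall was 21.6-fold (-4.44 ± 0.40, limma adjusted p = 0.000197), and the ABCG2 arrays differed more between themselves than the mock arrays did. Cd33, a sialic-acid-binding lectin of myeloid cells, lay at 0.70, 0 and -0.14 in mock and at -3.15 and -3.72 in ABCG2 marrow, a 12.3-fold fall (-3.62 ± 0.29, limma adjusted p = 0.000125). Cd300c2, another CD300-family receptor, had a mock mean of 1.01 ± 0.02 (SD, n = 3 arrays) and ABCG2 values of -2.04 and -1.66, a 7.27-fold fall (-2.86 ± 0.15, limma adjusted p = 3.1e-05). Quantile normalization gave -2.29 for Cd300lf and -1.98 for Cd33. Cd200r4, a relative of the CD200 receptor, lay at 0.08, 0 and -0.26 on the mock arrays and at -0.35 and -2.76 on the ABCG2 arrays. It did not pass (-1.49 ± 0.63, limma adjusted p = 0.0774), and without ABCG2 replicate 1 its difference was -2.70 (limma adjusted p = 0.000199).

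Neutrophil and monocyte marker lists moved with these receptors. All 13 measured of 20 neutrophil markers fell, where 26.2% of all genes did. Their list means were -0.25 to 0.05 on the mock arrays against -3.73 and -5.36 on the ABCG2 arrays. Of 14 monocyte and macrophage markers, 10 were measured and 9 fell, with means of 0.90 to 1.09 against -2.02 and -1.87. Megakaryocyte and platelet markers fell in 6 of 7 measured cases, with means of 0.39 to 0.80 against -1.85 and -1.62. Markers of these cells that were not in the values include Elane, Ly6g, Csf3r, Cx3cr1, Fcgr1 and Ppbp. Their part in the results of the CD-named genes was not tested.

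Ligands that stimulate or inhibit T cells fell in 2 of 4 measured cases and rose in 0, out of 9 listed. Among all genes 26.2% fell and 35.6% rose. Cd86, a costimulatory ligand of CD28 on antigen-presenting cells, lay at 1.53, 0.61 and 0.16 on the mock arrays and at -1.45 and -0.97 on the ABCG2 arrays. It fell by 1.98 on the log2 scale (SE 0.39, 3.93-fold, limma adjusted p = 0.00499), without overlap but with a wide spread among mock arrays. Cd274, which encodes the inhibitory ligand PD-L1, lay at 0.71, 0.80 and 0.17 in mock and at 0 and -0.35 in ABCG2 marrow (-0.74 ± 0.23, limma adjusted p = 0.0294). That call was lost without mock replicate 1, without mock replicate 2 and without ABCG2 replicate 2. Cd83, a marker of mature dendritic cells, had the widest spread within its groups, at -1.11, 1.32 and 1.10 in mock and 0.84 and -1.98 in ABCG2 marrow, and the groups overlapped (limma adjusted p = 0.405). Cd47, the signal that inhibits phagocytosis of the cell carrying it, differed by -0.07 ± 0.17 (95% interval -0.48 to 0.34, limma adjusted p = 0.732). Its 5 probe sets ran from -0.38 to 0.17.

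Scavenger and pattern receptors held 3 falls and 1 rise among 5 measured of 16 listed, where 26.2% of all genes fell and 35.6% rose. Cd68, a glycoprotein of macrophage endosomes and lysosomes, lay at 1.11, 1.20 and 1.02 on the mock arrays and at -3.20 and -2.29 on the ABCG2 arrays, a 14.4-fold fall (-3.85 ± 0.26, limma adjusted p = 6.56e-05). Cd302, a C-type lectin of macrophages, lay at 1.26, 0.70 and 0.78 and then at -1.08 and -0.20 (-1.55 ± 0.30, limma adjusted p = 0.00426). Cd36, a receptor for fatty acids, oxidised lipoprotein and thrombospondin, lay at -1.50, 0 and 0.39 in mock and at -2.30 and -2.32 in ABCG2 marrow (-1.94 ± 0.52, limma adjusted p = 0.0165). The first mock array was lowest of the 3 in Cd36. Its call was lost under quantile normalization (-0.73, limma adjusted p = 0.5), without mock replicate 2 and without either ABCG2 replicate. The rise in this group was not of a scavenger of phagocytes. Cd320 encodes the receptor that takes up vitamin B12 on transcobalamin, and it lay at 0.06, -0.27 and 0 on mock arrays and at 1.73 and 2.10 on ABCG2 arrays, a 3.95-fold rise (1.98 ± 0.18, limma adjusted p = 0.000181). Quantile normalization gave 1.26. Cd93, a lectin-like receptor of early B cells, progenitors, myeloid cells and endothelium, differed by -0.05 ± 0.18 (95% interval -0.48 to 0.38).

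Adhesion and progenitor surface proteins gave the largest fall of all members. Cd44, the hyaluronan receptor carried by most marrow leukocytes, lay at 0.30, 0.34 and 0.37 on the mock arrays and at -4.36 and -5.73 on the ABCG2 arrays. The fall was 41.6-fold (-5.38 ± 0.37, limma adjusted p = 6.49e-05), and its 2 probe sets gave -5.62 and -5.14. Quantile normalization gave -3.08. In this group 3 of 5 measured genes fell and 1 rose, out of 9 listed, against 26.2% and 35.6% of all genes. Cd24a, a sialoglycoprotein of B cell precursors, neutrophils and erythroid cells, lay at -0.05, 0.02 and -0.10 in mock and at -0.61 and -1.26 in ABCG2 marrow (-0.90 ± 0.21, limma adjusted p = 0.00906). Its 3 probe sets ran from -1.12 to -0.46. The weakest, with probes able to match other transcripts, did not pass in a fit of single probe sets (limma adjusted p = 0.14). Cd164, a sialomucin of progenitors, lay at 0.17, 0.15 and 0.25 and then at -0.36 and -0.66 (-0.70 ± 0.14, limma adjusted p = 0.00575). Cd99l2, a relative of CD99 that acts in leukocyte passage through vessel walls, lay at -0.48, 0 and 0.24 in mock and at 0.57 and 0.62 in ABCG2 marrow, a rise of 0.68 ± 0.22 (limma adjusted p = 0.0343). The calls of Cd24a and Cd99l2 changed with settings. Cd24a lost its call under quantile normalization (limma adjusted p = 0.076) and gave -0.57 without ABCG2 replicate 2. Cd99l2 lost it under quantile normalization (limma adjusted p = 0.458), without mock replicate 2 and without either ABCG2 replicate. Cd99 itself did not pass (-0.42 ± 0.19, limma adjusted p = 0.0921). Its 2 probe sets gave -0.56 and -0.29, and both have the suffix that marks probes able to match other transcripts.

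Complement regulators and lipid-anchored proteins fell in 3 of 3 measured cases, out of 7 listed, against 26.2% of all genes. Cd55, which speeds the decay of complement convertases, lay at 0, 0.07 and 0.23 on the mock arrays and at -3.42 and -3.47 on the ABCG2 arrays. It had the smallest adjusted p of the members (9.71e-06 in limma) for an 11.7-fold fall (-3.54 ± 0.14), and quantile normalization gave -1.98. Cd52, a short heavily glycosylated surface peptide of lymphocytes and monocytes, lay at -0.12, 0 and 0.13 in mock and at -1.71 and -1.11 in ABCG2 marrow (-1.41 ± 0.20, limma adjusted p = 0.00124), or -0.84 after quantile normalization. Cd59a, which blocks the membrane attack complex, lay at 0, 0.51 and -0.21 and then at -0.75 and -1.01 (-0.98 ± 0.23, limma adjusted p = 0.0101). That call was lost under quantile normalization (limma adjusted p = 0.165) and without ABCG2 replicate 2.

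**Figure D3:**
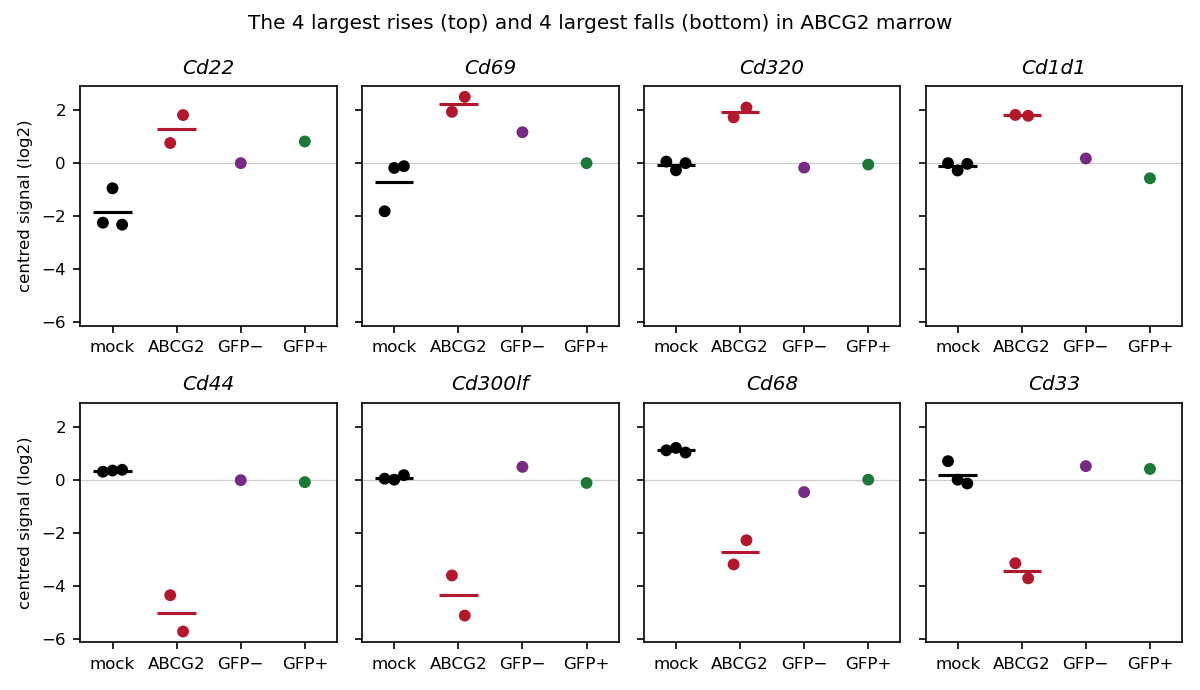
Centred signal (log2) on each array for the 4 CD-named genes with the largest rises (top) and the 4 with the largest falls (bottom) in ABCG2 marrow; points are arrays, with the 2 EZH2-Mt fractions as GFP− and GFP+, and bars are means of the 3 mock and 2 ABCG2 arrays. The ABCG2 points lie clear of the mock points in all 8, which were picked by that difference. Over all genes 76.9% show no overlap. Cd22 and Cd69 show the widest mock spread.

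CD antigens whose genes carry other names were counted in the same fit. Of 125 such genes listed, 70 were measured, 14 rose (20%, against 35.6% over all genes) and 41 fell (58.6%, against 26.2%), with a median difference of -0.97 log2, against -0.82 for the CD-named members and 0.15 over all genes. The list was chosen with earlier results of these data known and is no independent evidence of the direction. The passing genes with the largest differences were the myeloid lectin gene Clec4d (-6.20 ± 0.45), the chemokine receptor gene Ccr1 (-6.19 ± 0.43), Il7r for the interleukin 7 receptor of lymphoid precursors (5.93 ± 0.34), Clec7a for the fungal glucan receptor (-5.74 ± 0.15), the paired inhibitory receptor gene Pilra (-5.10 ± 0.19) and the NK receptor gene Klrd1 (5.01 ± 0.62).

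In EZH2-Mt marrow the largest difference between the sorted fractions was in Cd59a, the complement inhibitor gene, higher in GFP-positive cells. Of the 36 members, 1 was at least 1 log2 higher and 4 were at least 1 log2 lower, against 1.77% and 1.34% of all genes. With 1 array per fraction there is no test. Cd59a stood at 0.57 in GFP-negative and 2.14 in GFP-positive cells, a difference of 1.57 (2.97-fold). The GFP-positive value was the highest of the 7 arrays. Lower in GFP-positive cells were the NK and progenitor receptor gene Cd244a (0.53 to -0.72), the activation receptor gene Cd69 (1.17 to 0), the PD-L1 gene Cd274 (-0.14 to -1.28) and Cd200r4 (1.15 to 0.10). Their differences were -1.25, -1.17, -1.14 and -1.05. Just short of 1 log2 were Cd27 (-0.99), Cd72 (-0.96) and Cd86 (-0.93). The median over the members was -0.04, and over all genes 0.01.

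Erythroid markers were higher in both fractions, with list means of 1.14 in GFP-negative and 2.54 in GFP-positive cells, against -1.16 to 0.10 on the mock arrays. Only 5 of 14 were measured, Klf1, Ank1, Rhag, Ermap and Tfrc. Of the 2 T and NK markers measured, Klrd1 lay at 2.58 in GFP-negative and 0 in GFP-positive cells and Nkg7 at 0 and 0.31. On the mock arrays Klrd1 lay at -3.48, -1.13 and -2.12. The neutrophil marker mean was 0.28 and 1.07 in the fractions. The B lineage marker mean was 0.23 in GFP-negative and 0.62 in GFP-positive cells, above the mock range of -1.18 to -0.37. Il7r weighed heavily in this gap, at 5.71 above its mock mean in GFP-negative and 4.28 in GFP-positive cells. Of the 7 measured genes, 1 lay at least 1 log2 above its mock mean and outside its mock range in GFP-negative cells. In GFP-positive cells 3 did. Over all genes the shares were 2.46% and 4.32%. Control probe sets also differed between the fractions, by the medians given above. Their part in the differences between fractions was not tested.

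Both fractions were set against the mock arrays that also served the ABCG2 comparison, and sorting and transgene cannot be told apart here. In GFP-negative cells, 5 members lay at least 1 log2 above the mock mean and outside the mock range, against 2.46% of all genes. They were Cd69 (1.87), Cd22 (1.84), Cd72 (1.39), Cd200r4 (1.21) and Cd27 (1.09). Another 5 lay at least 1 log2 below and outside the range, against 2.09% of all genes, namely Cd93 (-1.64), Cd68 (-1.58), Cd300c2 (-1.36), Cd48 (-1.25) and Cd302 (-1.18). By the same rule 3 lay above in GFP-positive cells, against 4.32% of all genes, namely Cd22 (2.65), Cd59a (2.04) and Cd36 (1.18). Another 5 lay below by that rule, against 3.01% of all genes, namely Cd274 (-1.84), Cd86 (-1.69), Cd48 (-1.58), Cd68 (-1.11) and Cd300c2 (-1.01). The Cd93 value was -1.48 in GFP-negative and -0.84 in GFP-positive cells, below all mock and ABCG2 arrays, and Cd48 was likewise lowest in the fractions, at -1.38 and -1.71.

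Values spread less on the fraction arrays (SD 0.41 and 0.54) than on the ABCG2 arrays (1.06 and 1.13). The 8 members with the deepest falls in ABCG2 marrow were picked by those falls. Smaller differences elsewhere were therefore largely fixed in advance, and no conclusion is drawn from them. Their differences from the mock mean in the EZH2-Mt fractions were smaller. In GFP-negative and GFP-positive cells these were -0.36 and -0.43 for Cd44, 0.41 and -0.19 for Cd300lf, -1.58 and -1.11 for Cd68, and 0.33 and 0.22 for Cd33. They were 0.63 and -0.18 for Cd55, -0.57 and -0.97 for Cd84, -0.29 and -0.61 for Cd9, and -1.36 and -1.01 for Cd300c2. Of these, Cd33 lay within the range of the mock arrays in both fractions. Only Cd68 and Cd300c2 lay at least 1 log2 below the mock mean and outside the mock range, both in each fraction. Over all genes the shares below by that rule were 2.09% in GFP-negative and 3.01% in GFP-positive cells. The rises of Cd320 and Cd1d1 had no counterpart of that size, at -0.10 and 0.02 for Cd320 and 0.28 and -0.47 for Cd1d1. Monocyte marker means were -0.33 and -0.09 in the fractions, below the mock range of 0.90 to 1.09.

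**Figure D4:**
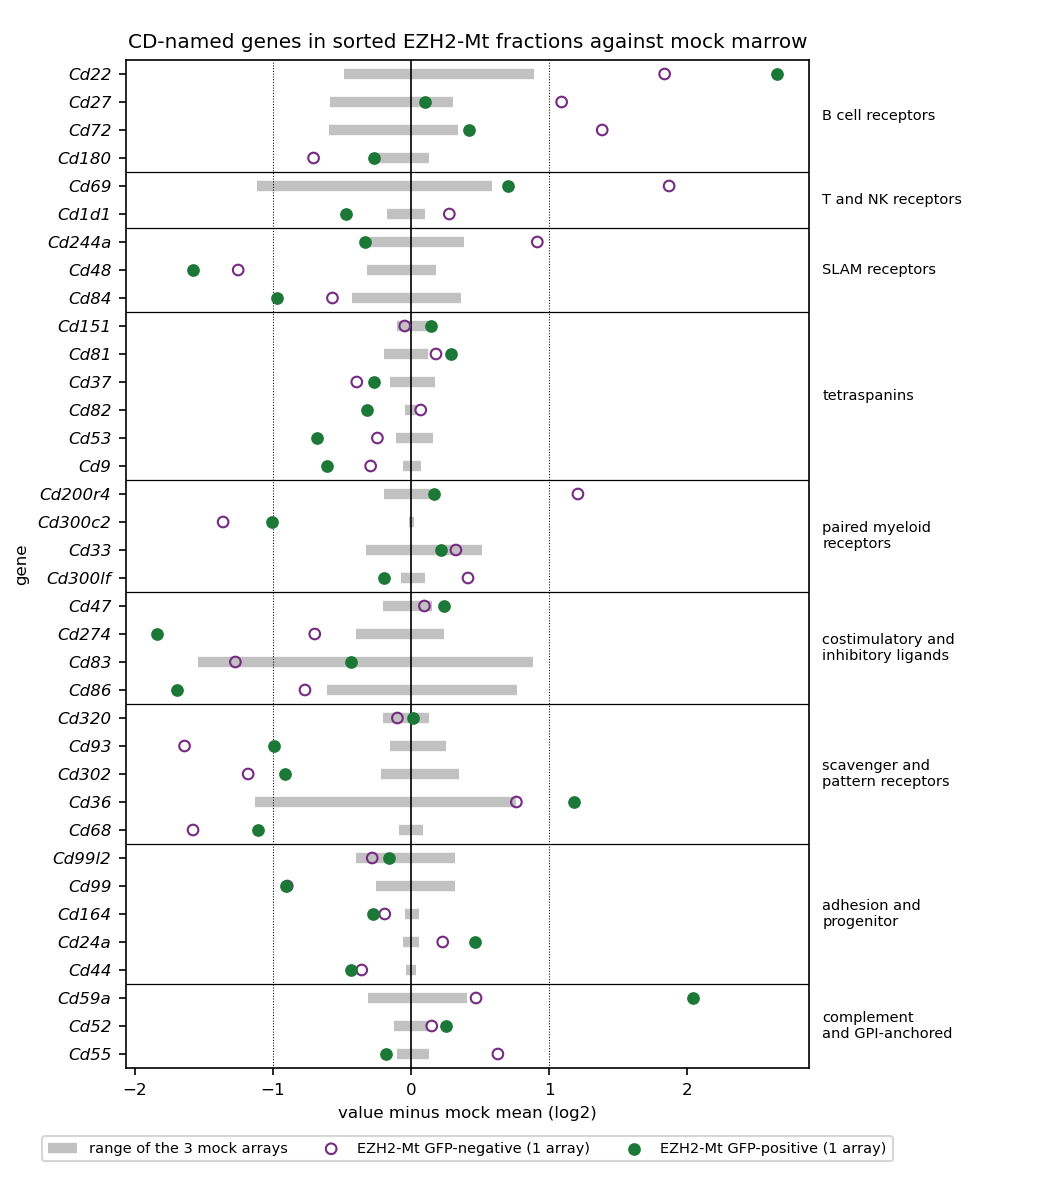
Values of the EZH2-Mt GFP-negative (open) and GFP-positive (filled) arrays minus the mock mean, in log2, for each CD-named gene, with the range of the 3 mock arrays as grey bars and dotted lines at 1 log2 either side of 0. Cd22 lies right of the mock range in both fractions, by 1.84 and 2.65, and Cd48 and Cd68 lie left of it in both.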

How the data were processed

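RNA of marrow cells from 7 samples was hybridised to Affymetrix Mouse430_2 arrays. The deposited values are log signals of unstated base, taken as log2, that the authors had normalized. Per the file headers, they were filtered on raw signal from 3 to 120534.25 and on detection (Present or Marginal in 100% of the samples). Base 10 cannot hold the largest range of a probe set, 8.70, since the raw limits span 4.60 in log10. Natural logs, which span 10.6, could, and folds assume base 2. The submitters' processing notes name MAS5; not given in the sources used here are the scaling and the probe-level steps. The median over the arrays was 0 in 100% of the 16309 probe sets. Control probe sets (54) were set apart. Of 16255 others, 14229 had 1 symbol, 483 several and 1543 none. A gene's value was the mean of its probe sets with 1 symbol (8378 genes). ABCG2 and mock arrays were compared with limma 3.58.1 (R 4.3.3, lmFit and eBayes, two-sided) over all genes, with Benjamini-Hochberg adjustment at 0.05, tested on simulated data. Values after ± are limma's standard errors, and intervals are 95%. Array number limits the precision. Single arrays were counted at 1 log2. Members, role groups, lists, motifs and tests were chosen with earlier results of these data known. Values on each array were given for up to 15 largest rises and falls past the threshold and 8 largest differences between fractions each way, other members within their role, and up to 6 genes from another list. Same-numbered mock and ABCG2 arrays did not deviate together (r = 0.07 and -0.06). Alternatives were quantile normalization, subtracted array medians, the median of probe sets, array weights, robust eBayes, a replicate block, a fold minimum, leaving out each array, and adding the 7 set-aside surface genes.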

Additional observations from a re-analysis of the deposited data

How the results depend on the processing

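Of 29 members called in ABCG2 against mock marrow, 18 passed under each of the 11 settings per gene, among them Cd44, Cd300lf, Cd68, Cd22, Cd69, Cd320 and Cd1d1. Counts of 11 higher and 18 lower became 4 and 15 under quantile normalization, and 6 and 14 with a minimum of 1 log2. Leaving out 1 array gave 8 to 10 higher and 16 to 18 lower. With an ABCG2 array left out, the lone array is assumed to vary like the mock arrays. With the replicate number as a block the counts were 9 and 18, Cd72 and Cd81 losing their calls; the arrays share only a number, and the labels name no pairing. Over all genes quantile normalization called 1428 higher and 1452 lower, against 2983 and 2196, so 49.6% of calls were higher in place of 57.6%.

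Between the fractions, 1 higher and 4 lower became 3 and 8 under quantile normalization (3.53% and 3.37% of all genes), and 2 and 6 with the 7 set-aside surface genes. Members at least 1 log2 below the mock mean and outside the mock range went from 5 to 9 in GFP-negative (7.6% of all genes) and from 5 to 10 in GFP-positive cells (8.09%) under quantile normalization. The latter count was 5 to 8 with 1 mock array left out, 8 without mock replicate 2. Members as far above in GFP-positive cells went from 3 to 5 with the 7 genes added. With 1 mock array left out that count was 2 to 3, 2 without mock replicate 1. The count as far above in GFP-negative cells, 5 in the main setting, was then 4 to 7, 4 without mock replicate 1.

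Directions turned in 4 members that had not passed. Leaving out 1 array gave Cd47 differences from -0.22 to 0.0805, Cd93 from -0.18 to 0.0868 (0.0113 with array weights), Cd37 from -0.0495 to 0.58, and Cd83 from -2.42 to 0.40. The causes were not tested. A filter on dim probes and another background correction were not run, because the values carry no level. Signal over background is not known for any array, so small differences of dim genes cannot be told from those of bright ones.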

Other observations

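The 7 surface genes with a CD name that were set aside included 3 that fell and 2 that rose in ABCG2 marrow. The phagocyte receptor gene Cd300lb lay at 1.05, 0.94 and 0.76 on the mock arrays and at -5.23 and -6.67 on the ABCG2 arrays. Cd177, a neutrophil surface gene, lay at 0.11, -0.15 and 0 and then at -5.22 and -6.84. Among lymphocyte genes, Cd79b, a chain of the B cell receptor, and Cd28, the T cell costimulatory receptor, rose in limma's test, while the T cell receptor chain gene Cd3d and the invariant chain gene Cd74 did not pass. With the 7 genes added, 13 of 43 genes rose (30.2%, against 35.6% of all genes) and 21 fell (48.8%, against 26.2%). Cd3d lay at 1.42 in EZH2-Mt GFP-negative and 0.06 in GFP-positive cells, with 1 array each.

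Of 7 measured dendritic cell markers, 2 were higher and 2 lower in ABCG2 marrow. Plasma cell markers held 2 higher and 1 lower of 5 measured, and stem and progenitor markers 4 higher and 3 lower of 9. Erythroid markers held 1 higher and 0 lower of 5. For comparison, 35.6% of all genes were higher and 26.2% lower.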
